A study of Mus musculus with 9 samples.

Results

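Zinc finger protein (Zfp) genes are a large, loosely named set of mouse genes, most of which encode proteins with tandem C2H2 fingers, short folds in which a pair of cysteines and a pair of histidines hold a zinc ion. The genes described here were those of the deposited expression table with a symbol of the form Zfp followed by a number, a protein-coding transcript and a mean FPKM (fragments per kilobase of transcript, relative to all mapped fragments) of at least 1 over the 9 libraries. They numbered 169 of the 378 protein-coding Zfp genes and of the 29237 genes in the table. The members were thus chosen by their symbol and their mean FPKM, and that level is given as a description, with no test. The libraries came from hearts of wild-type C57BL/6 mice aged 8 to 12 weeks, with 3 libraries in each of the groups TPTN, DOX and control. The design text names these as a TPTN treated group, a DOX model group and a normal group. DOX commonly stands for doxorubicin, an anthracycline cancer drug that can damage the heart. The labels do not expand either name, do not say whether TPTN mice also received DOX, and give no dose, time or sex. The labels number the replicates but do not say that they are separate animals, and p-values here cover the spread between libraries alone, which may be technical.

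Many Zfp proteins bind DNA through their fingers, and each finger reads a short stretch of bases. The largest mammalian subfamily also carries a KRAB box, a short domain that recruits the corepressor Trim28, which in turn brings the histone methyltransferase Setdb1 and heterochromatin proteins to silence transposable elements and imprinted regions. Other members act as transcriptional activators, bind RNA or work in ubiquitin and chromatin complexes, and some carry the symbol without having C2H2 fingers. Zfp36, or tristetraprolin, is such a case, since its CCCH fingers bind AU-rich elements in messenger RNA and promote its decay.

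The stretches upstream of 4 members are shown because results below turn on these genes. Zfp513 was the single member past the test threshold in any comparison. Zfp970 and Zfp966 had the lowest log2 changes in DOX against control, and with Zfp971 they lie on chromosome 2 and have closely alike upstream windows. Each line gives the 250 bases before the gene start in RefSeq (GRCm38.p6), 5′ to 3′ on the gene's strand, with capitals marking CCAAT boxes (CCAAT or its reverse complement ATTGG) and ETS cores (CGGAAG or CTTCCG).
Zfp513, chr5:31202304-31202553, minus strand: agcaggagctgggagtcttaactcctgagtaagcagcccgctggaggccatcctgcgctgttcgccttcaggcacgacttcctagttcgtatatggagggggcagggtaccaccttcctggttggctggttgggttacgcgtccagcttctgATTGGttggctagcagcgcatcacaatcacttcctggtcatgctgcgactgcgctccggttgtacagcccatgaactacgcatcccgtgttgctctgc
Zfp970, chr2:177464492-177464741, plus strand: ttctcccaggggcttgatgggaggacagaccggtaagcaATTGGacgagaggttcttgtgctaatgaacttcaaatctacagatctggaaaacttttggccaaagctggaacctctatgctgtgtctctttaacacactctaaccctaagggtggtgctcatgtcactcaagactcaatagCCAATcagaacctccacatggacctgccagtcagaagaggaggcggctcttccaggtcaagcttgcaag
Zfp966, chr2:175931101-175931350, minus strand: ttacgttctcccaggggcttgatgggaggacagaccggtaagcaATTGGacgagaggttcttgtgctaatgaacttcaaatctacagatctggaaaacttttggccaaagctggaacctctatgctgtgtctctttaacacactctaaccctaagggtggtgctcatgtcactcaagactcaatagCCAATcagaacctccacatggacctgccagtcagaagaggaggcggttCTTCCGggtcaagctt
Zfp971, chr2:178023034-178023283, plus strand: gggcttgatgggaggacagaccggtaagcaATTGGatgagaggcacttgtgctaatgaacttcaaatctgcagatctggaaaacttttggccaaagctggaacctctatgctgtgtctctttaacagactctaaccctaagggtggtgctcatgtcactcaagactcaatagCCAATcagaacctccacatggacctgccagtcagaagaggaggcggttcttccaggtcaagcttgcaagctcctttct

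The windows of Zfp970 and Zfp966 aligned with 243 identical bases of 250. Zfp970 and Zfp971 shared 235 identical bases, and Zfp966 and Zfp971 shared 230. The 3 windows hold their pair of CCAAT boxes in the same surroundings, while the Zfp513 window holds a single one. RefSeq promoters were matched by symbol for 136 of the 169 members. A CCAAT box was found in 63.6% of KRAB members and in 45.7% of members without a KRAB box, against 40.2% of all tested genes and 37.5% of all promoters. A GC box (GGGCGG or CCGCCC) was found in 39.4% of KRAB members and in 67.1% of members without a KRAB box, against 64.6% of all tested genes and 35.4% of all promoters. The ETS core was found in 27.9% of members, against 29.1% of tested genes and 15.3% of all promoters. TATAAA or TTTATA occurred in 8.09% of members, 8.11% of tested genes and 14.3% of all promoters. Motifs were counted on both strands, and a match describes letters in the window, not a bound site.

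Most members had low levels in these hearts, above the floor of 1 FPKM set by the rule. The median member had a mean of 2.01 FPKM, with quartiles of 1.41 and 2.93. The 12500 genes tested, which had a lower minimum mean of 0.5 FPKM, had a median of 3.07 FPKM. A total of 83 members averaged under 2 FPKM and 11 averaged at least 5 FPKM. The members' summed FPKM was 473.2, 499.7 and 496.8 in TPTN libraries, 517.6, 468.7 and 454.6 in DOX libraries and 489.7, 475.6 and 466.8 in control libraries. Estimated depth ran from 18300000 to 24300000 read pairs per library, a rough figure that its own check did not bear out. Only 11.6 to 14.6% of low values lay within 0.05 of a whole multiple of 1 read pair, little more than evenly spread values would give. The 3 genes just above the minimum level were Zfp799, Zfp746 and Zfp28 at 1.0, 1.01 and 1.02 FPKM, and the 3 just below it were Zfp318, Zfp142 and Zfp467 at 0.994, 0.992 and 0.989 FPKM. The 209 protein-coding Zfp genes below the minimum had a median of 0.401 FPKM, and 161 of them encode a KRAB box.

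Zfp106, an RNA-binding protein known for a role in muscle and motor neurons, was the most abundant member by a wide margin. It had 50.8, 50.2 and 56.1 FPKM in TPTN libraries, 51.8, 47.1 and 45.1 FPKM in DOX libraries and 51.2, 53.5 and 54.5 FPKM in control libraries. The 3 groups overlapped. Zfp706, a protein of 76 residues with a single finger, came next at a mean of 13.8 FPKM. Zfp651 followed at 12.5 FPKM, Zfp970 and Zfp91 at 10.4 FPKM each, Zfp768 at 9.49 FPKM, Zfp207 at 7.72 FPKM and Zfp445 at 7.57 FPKM. Zfp91 is a ubiquitin ligase of the noncanonical NF-kappaB pathway, Zfp207 a spindle assembly factor that binds Bub3, and Zfp445 a KRAB protein that maintains imprinted methylation. The lowest library of Zfp106, at 45.1 FPKM, exceeded the highest of Zfp706, at 15.2 FPKM, while every other pair of neighbours in this order overlapped over the 9 libraries.

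**Figure D1:**
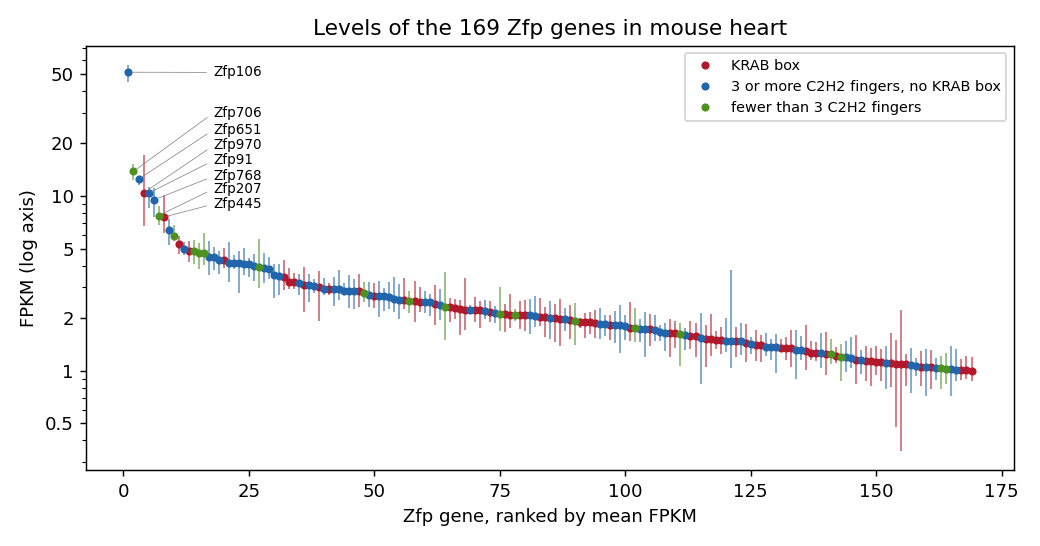
FPKM of the 169 Zfp genes, ranked by their mean over 9 libraries, on a log axis. Points are means, vertical lines run from the lowest to the highest library, and colours give the protein class. Zfp106 stands at 51.1 FPKM and most members lie between 1 and 3 FPKM.

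The proteins encoded by these genes fell into 3 classes by sequence. A KRAB box was found in 74 members, 76 had 3 or more C2H2 fingers and no KRAB box, and 19 had fewer than 3 C2H2 fingers and no KRAB box. KRAB members had a median of 11 fingers and a median level of 1.86 FPKM, against 9 fingers and 2.22 FPKM for the members with fingers alone and 2.31 FPKM for those with few fingers. KRAB members made up 32.7% of the summed Zfp level, the members with fingers alone 53.4% and those with few fingers 13.9%. Zfp970, at 10.4 FPKM, was the most abundant KRAB member. Finger number ran from 0 to 30, and Zfp236 had the most. Zfp36 had 0 C2H2 and 2 CCCH matches. A SCAN domain, a dimerization module, was found in Zfp24, Zfp445, Zfp263, Zfp397, Zfp110 and Zfp213.

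Of the 169 members, 73 (43.2%) lay within 500 kb of another member. In GRCm38 coordinates, chromosome 7 held 37 members and chromosome 17 held 20, of which 17 encode a KRAB box. A neighbouring member within that distance was found for 60.8% of KRAB members, 34.2% of the members with fingers alone and 10.5% of those with few fingers. Several clustered members are near copies of other genes, so the counting of reads could split their signal. In 9 members, all of them with a KRAB box, at least 50% of the 31-base words of the transcript also occur in other genes. Every word of Zfp969 is shared with other genes, as are 93.9% of the words of Zfp966, 91.9% of Zfp993, 89.2% of Zfp960, 87.7% of Zfp97, 69.5% of Zfp971, 68.8% of Zfp984, 67.9% of Zfp970 and 66.0% of Zfp955a. Their single values are uncertain.

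Zfp levels were close to each other across the 3 groups. The ratio of the highest to the lowest group mean had a median of 1.15 and was under 1.2 in 114 members. It was 1.5 or more in 4 members, Zfp966 (2.46), Zfp579 (1.74), Zfp970 (1.56) and Zfp366 (1.56), which were named after their values were seen. This ratio was not computed over all tested genes, so it does not set the members apart. The standard deviation of log2(FPKM + 1) within groups had a median of 0.108 over the members and 0.109 over all tested genes.

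The 3 DOX libraries differed among themselves. DOX replicate 1 was the highest of the 9 libraries for 49 members, or 29.0%, against 22.8% of tested genes. DOX replicate 3 was the lowest for 48, or 28.4%, against 19.7% of tested genes. Relative to each gene's mean over the 9 libraries, the median member stood at -0.015, 0.047 and 0.031 log2 units in TPTN replicates 1 to 3. It stood at 0.080, -0.024 and -0.062 in DOX replicates 1 to 3, and at -0.001, -0.026 and -0.038 in control replicates 1 to 3. The median over all tested genes was -0.031, 0.043 and 0.015 in TPTN replicates 1 to 3. It was 0.057, 0.016 and -0.022 in the DOX replicates and -0.015, -0.047 and -0.024 in the control replicates. When mitochondrial genes and their nuclear copies were left out of the sum, Zfp genes made up 0.292, 0.294 and 0.296% of FPKM in TPTN libraries, 0.291, 0.255 and 0.244% in DOX libraries and 0.294, 0.299 and 0.286% in control libraries. The DOX replicates 2 and 3 were the lowest of the 9 libraries on this measure and DOX replicate 1 lay among the control libraries.

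DOX replicate 1 also stood apart in atrial and fibroblast markers. It lay within the range of the other libraries in the endothelial (88.1 FPKM) and macrophage (38.3 FPKM) marker sums. It was lowest in the erythroid sum, at 193 FPKM. In the mesothelial sum it was highest, at 1.99 FPKM, though each of those markers averaged under 1 FPKM. The sums were not split by gene. The summed FPKM of the 4 atrial markers Myl7, Myl4, Sln and Nppa was 2440 in that library, against 196 and 289 in the other DOX libraries, 52.8 to 121 in TPTN libraries and 51.4 to 148 in control libraries. The summed FPKM of the 4 fibroblast markers Pdgfra, Col1a1, Dcn and Tcf21 was 85.5 in DOX replicate 1, and ran from 58.9 to 66.8 in the other DOX libraries, from 55 to 61.7 in TPTN libraries and from 57.4 to 59.1 in control libraries. The 6 cardiomyocyte markers summed to 10700 to 10900 FPKM in TPTN, 10200 to 11700 FPKM in DOX and 9110 to 10200 FPKM in control libraries, so that every TPTN library lay above every control library. The 4 neutrophil markers, 3 of which averaged under 1 FPKM, summed to 0.188 to 0.267 FPKM in TPTN, 1.01 to 3.8 FPKM in DOX and 4.26 to 11.4 FPKM in control libraries, with no overlap between groups. The 4 lymphocyte markers each averaged under 1 FPKM. The part of these cell types in the Zfp values was not tested. In these bulk samples, fewer cells of a type and less RNA per cell cannot be told apart.

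**Figure D2:**
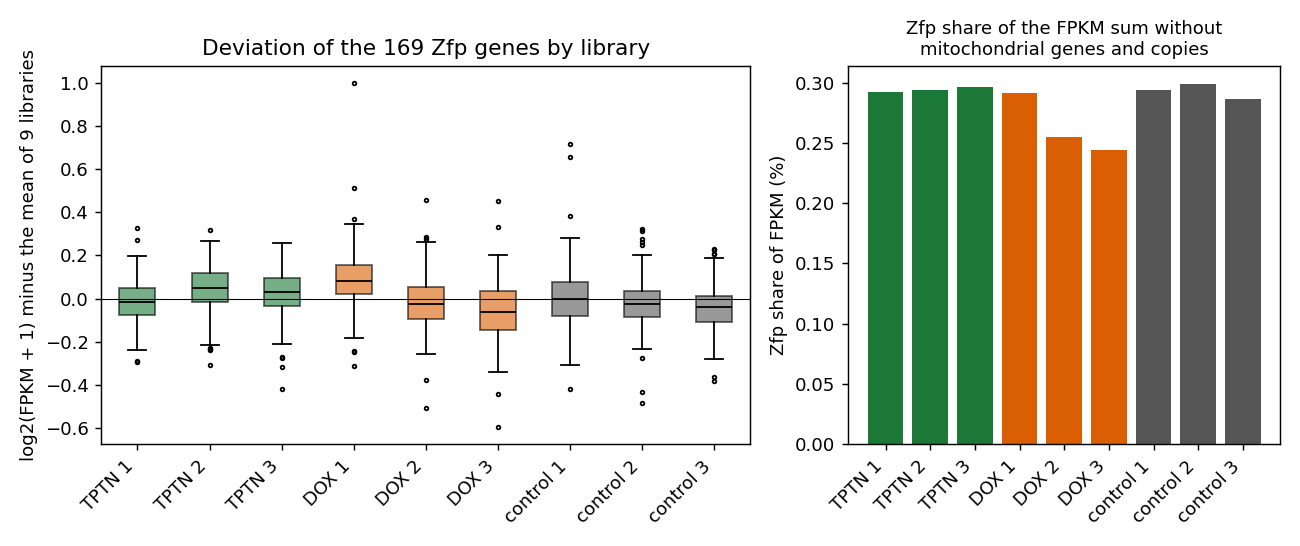
Left, deviation of each of the 169 Zfp genes from its own mean over 9 libraries, in log2(FPKM + 1), with boxes for quartiles, a line for the median, whiskers to 1.5 times the interquartile range and points beyond. Right, share of FPKM held by Zfp genes after leaving out mitochondrial genes and their copies. DOX replicate 1 sits highest on the left, and DOX replicates 2 and 3 sit lowest on the right at 0.255 and 0.244%.

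Zfp579, with 8 fingers and no KRAB box, was the clearest case of a single library. It had 1.36, 1.03 and 1.10 FPKM in TPTN libraries, 3.79, 1.15 and 1.15 FPKM in DOX libraries and 1.26, 1.38 and 1.14 FPKM in control libraries. All values but the one of DOX replicate 1 lay between 1.03 and 1.38 FPKM. The log2 change in DOX against control was 0.32 (SE 0.29) and stood at -0.07 (SE 0.09) without that library. Zfp703, a transcriptional corepressor amplified in human breast cancer, had 3.67, 2.66 and 2.02 FPKM in DOX libraries against 1.95, 2.32 and 1.5 FPKM in control libraries. Its log2 change was 0.36 (SE 0.15) and stood at 0.20 (SE 0.12) without DOX replicate 1. Both genes were named after their values were seen.

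The comparison of DOX with control hearts asked how the model changed heart expression. No Zfp gene passed the threshold, which was a Benjamini-Hochberg adjusted p below 0.05 in limma over all 12500 tested genes, whereas 2.63% of those genes did. At an unadjusted p under 0.05, 12 members were higher and 7 lower in DOX, which is 7.10 and 4.14% of members. Over all tested genes the shares were 14.6 and 3.47%. The order of the members' counts depended on the scaling and on 1 library. It was 7 higher and 15 lower with median ratios (9.52 and 7.90% of tested genes), 9 and 15 with quantile normalization (8.17 and 9.49%), 2 and 21 with FPKM rescaled to leave mitochondrial genes and their copies out of the total (4.30 and 16.7%), and 6 and 16 without DOX replicate 1 (13.6 and 5.78%). Leaving out each of the 9 libraries in turn gave 6 to 15 members higher and 3 to 16 lower. The 3 DOX libraries lay above all 3 control libraries in 12 members and below them in 5, or 7.10 and 2.96% of members, against 17.7 and 5.10% of tested genes. The median log2 change was 0.017 over the members and 0.044 over all tested genes, with a positive value in 60.4% of members and 62.8% of tested genes. An absolute change of at least 0.5 on log2(FPKM + 1) was seen in 2 members, or 1.18%, against 2.52% of tested genes. This scale understates the change of low genes, and the members' median level of 2.01 FPKM lay below the 3.07 FPKM of tested genes. Without DOX replicate 1 the median was -0.024 over the members and 0.024 over all tested genes. With the rescaled FPKM both medians turned negative, to -0.084 over the members and -0.071 over all tested genes.

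Zfp385a and Zfp787 came nearest to the threshold on the higher side. Zfp385a, an RNA-binding protein induced by p53, had 3.18, 3.24 and 3.45 FPKM in DOX libraries against 2.69, 2.47 and 2.35 FPKM in control libraries. The groups did not overlap, and the log2 change was 0.29 (SE 0.07, limma adjusted p = 0.0551). Zfp787 had 2.88, 2.96 and 2.96 FPKM in DOX libraries against 2.40, 2.19 and 2.28 FPKM in control libraries, also without overlap. Its log2 change was 0.26 (SE 0.06, limma adjusted p = 0.0639). TPTN libraries held 2.92, 2.90 and 3.19 FPKM of Zfp385a and 2.67, 2.84 and 2.77 FPKM of Zfp787, above every control library in both genes. Zfp954, Zfp706 and Zfp637 followed with log2 changes of 0.31, 0.21 and 0.27 in DOX against control, with limma adjusted p from 0.101 to 0.179.

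On the lower side in DOX stood Zfp830, Zfp966, Zfp691, Zfp970 and Zfp513. Zfp830, a nuclear protein known from mouse embryos and blood stem cells, had 4.17, 4.07 and 4.78 FPKM in DOX libraries against 5.27, 5.62 and 5.15 FPKM in control libraries. The groups did not overlap, and the log2 change was -0.25 (SE 0.07, limma adjusted p = 0.0978). Zfp691 had 1.98, 2.22 and 2.19 FPKM in DOX libraries against 2.40, 2.87 and 3.13 FPKM in control libraries, with a log2 change of -0.28 (SE 0.08, limma adjusted p = 0.113). These were differences that missed the threshold.

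Zfp966 and Zfp970, the chromosome 2 genes with closely alike upstream windows, had the lowest log2 changes of the members. Zfp966 had 0.891, 1.29 and 1.10 FPKM in TPTN libraries and 0.992, 0.571 and 0.348 FPKM in DOX libraries, against 2.22, 1.42 and 1.04 FPKM in control libraries. Its DOX libraries lay below all control libraries, with a log2 change of -0.64 (SE 0.18, limma adjusted p = 0.1001). Zfp970 had 8.56, 7.93 and 11.1 FPKM in TPTN libraries and 11, 6.76 and 8.11 FPKM in DOX libraries, against 17.2, 12.8 and 10.3 FPKM in control libraries. Its groups overlapped, with a log2 change of -0.58 (SE 0.21, limma adjusted p = 0.202) in DOX against control and -0.49 (SE 0.21, limma adjusted p = 0.380) in TPTN against control. Control replicate 1 was the highest of the 9 libraries in both. The related Zfp971 gave -0.10 (SE 0.12) and Zfp969 gave 0.16 (SE 0.16) in DOX against control. Most words of the Zfp966, Zfp970, Zfp971 and Zfp969 transcripts also occur in other genes, counted over all other genes together. How much these members share with each other is not given here. A shift between such copies and a shift in their sum cannot be told apart here.

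**Figure D3:**
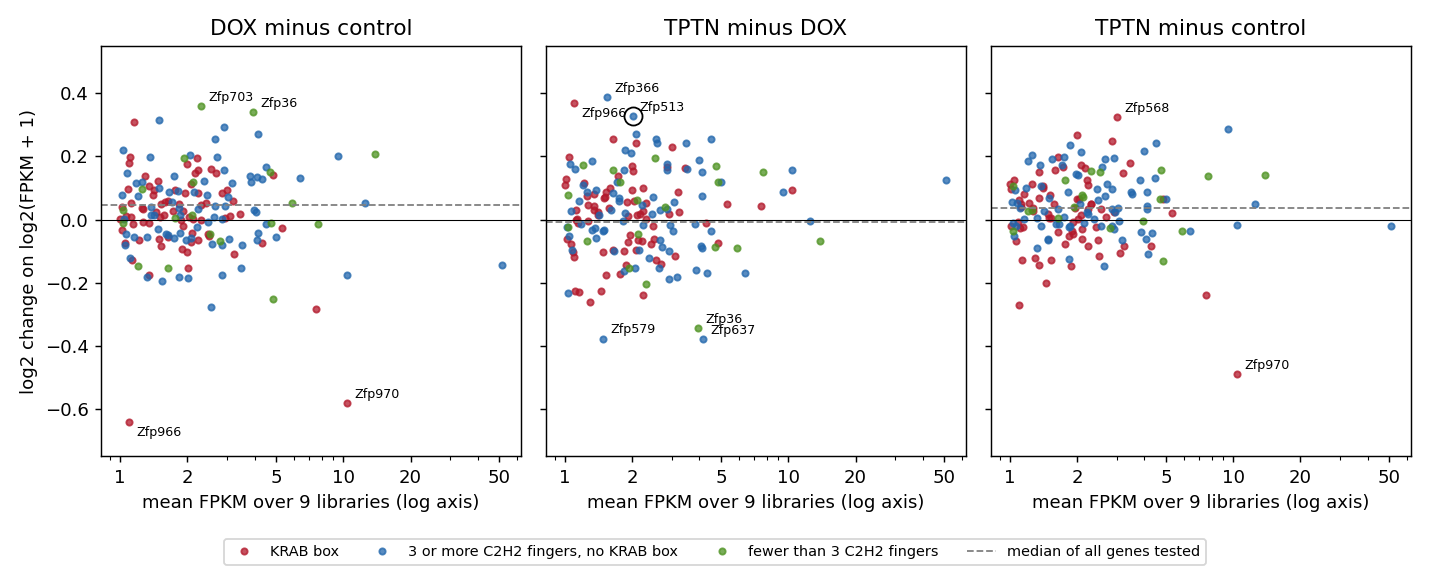
Log2 change of each Zfp gene on the log2(FPKM + 1) scale against its mean FPKM, on a log axis, in the 3 comparisons, with colours for the protein class. The dashed line is the median of all 12500 tested genes, the ring marks Zfp513, the member past the threshold, and genes beyond 0.32 in either direction carry names. Members scatter about the dashed line, and Zfp966 and Zfp970 stand lowest in DOX minus control at -0.64 and -0.58.

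TPTN hearts were next compared with DOX hearts. Zfp513 was the 1 member past the threshold, which is 0.592% of members, against 3.26% of tested genes in either direction and 0.792% on the higher side. At an unadjusted p under 0.05, 13 members were higher and 7 lower in TPTN, which is 7.69 and 4.14% of members against 7.78 and 12.9% of tested genes. The members' counts were 41 higher and 1 lower with the rescaled FPKM (21.9 and 5.21% of tested genes), 28 and 4 without DOX replicate 1 (11.8 and 12.7%), and 9 and 10 without DOX replicate 3 (4.79 and 12.0%). Over the fits that left out a library, 6 to 28 members were higher and 3 to 10 lower. TPTN libraries lay above all DOX libraries in 17 members and below them in 9, or 10.1 and 5.33% of members, against 10.4 and 14.1% of tested genes. The median log2 change was 0.022 over the members and -0.0079 over all tested genes, with a positive value in 55.6% of members and 48.1% of tested genes. Without DOX replicate 1 these medians were 0.063 and 0.011, and with the rescaled FPKM they were 0.107 and 0.085. The members' median turned negative without DOX replicate 3, at -0.0098 against -0.0277 over all tested genes. It stood at 0.0006 without TPTN replicate 2 and at 0.0048 without TPTN replicate 3, against -0.0259 and -0.0117 over all tested genes. No member had an absolute change of at least 0.5 on log2(FPKM + 1), which understates the change of low genes, against 2.69% of tested genes. The FPKM means of Zfp579 were 1.166 in TPTN and 2.032 in DOX libraries, and those of Zfp366 were 1.88 and 1.206. The Zfp579 difference came from DOX replicate 1.

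Zfp513 (ENSMUSG00000043059, chromosome 5, 31198981 to 31202303, minus strand) encodes 541 residues with 8 fingers and no KRAB box, and in people its gene has been linked to inherited retinal degeneration. It had 2.12, 2.51 and 2.39 FPKM in TPTN libraries against 1.63, 1.83 and 1.51 FPKM in DOX libraries and 2.09, 1.97 and 1.99 FPKM in control libraries. The TPTN values all lay above the DOX values, and so did the control values. Zfp513 was higher in TPTN by 0.33 log2 units (SE 0.08, limma adjusted p = 0.0452). The call did not hold when any 1 of the 9 libraries was left out, with limma adjusted p from 0.0589 to 0.127, nor when only the 2 groups compared were fitted (0.0888). In DOX against control its log2 change was -0.18 (SE 0.08, limma adjusted p = 0.233). The named genes most like Zfp513 over the 9 libraries were Slfn5, Otud3 and Ipo7. Their Pearson r on log2(FPKM + 1) was 0.986, 0.981 and 0.968. They were chosen as the highest among tested genes whose symbols do not start with ENSMUSG or with Gm and a digit.

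Zfp335, Zfp691, Zfp322a and Zfp84 were next on the higher side in TPTN against DOX. Zfp335, a subunit of a histone H3 lysine 4 methyltransferase complex, had 2.32, 2.56 and 2.40 FPKM in TPTN libraries against 2.13, 1.78 and 1.62 FPKM in DOX libraries. The groups did not overlap, and the log2 change was 0.27 (SE 0.09, limma adjusted p = 0.107). Zfp691 gave 0.26, Zfp322a 0.21 and Zfp84 0.26 log2 units, with limma adjusted p from 0.122 to 0.131. On the lower side, Zfp637 had 3.32, 4.22 and 3.21 FPKM in TPTN libraries against 5.48, 4.97 and 4.4 FPKM in DOX libraries and 3.94, 3.70 and 4.13 FPKM in control libraries. The TPTN and DOX libraries did not overlap, and the log2 change was -0.38 (SE 0.10, limma adjusted p = 0.0658). Zfp14, Zfp189 and Zfp954 followed at -0.23, -0.26 and -0.23 log2 units, with limma adjusted p from 0.182 to 0.185.

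Zfp36, the mRNA decay factor, had 2.98, 4.08 and 3.47 FPKM in TPTN libraries, 4.81, 5.69 and 3.76 FPKM in DOX libraries and 4.05, 3.48 and 3.03 FPKM in control libraries. The DOX libraries overlapped both other groups. The log2 change was -0.34 (SE 0.14, limma adjusted p = 0.186) in TPTN against DOX and 0.34 (SE 0.14, limma adjusted p = 0.223) in DOX against control, comparisons that share the DOX libraries. Its relatives Zfp36l1 and Zfp36l2, which bind the same kind of element, were more abundant per length. Zfp36l1 averaged 17.0 ± 1.48 FPKM in TPTN, 15.0 ± 0.991 FPKM in DOX and 15.3 ± 0.834 FPKM in control libraries (SD, n = 3 each). Zfp36l2 had 6.29, 6.13 and 5.97 FPKM in TPTN libraries against 4.83, 5.00 and 5.20 FPKM in control libraries, without overlap, with a log2 change of 0.25 (SE 0.07, limma adjusted p = 0.143). Of 22 tested genes among the Zfp36 relatives and the deadenylation and decapping machinery, none passed the threshold in any comparison with limma. With no adjustment, p was under 0.05 for 3 that were higher in DOX against control, 2 in TPTN against DOX and 1 in TPTN against control, and none was lower. These are 13.6, 9.09 and 4.55% of the list, against 14.6, 7.78 and 9.02% of tested genes.

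**Figure D4:**
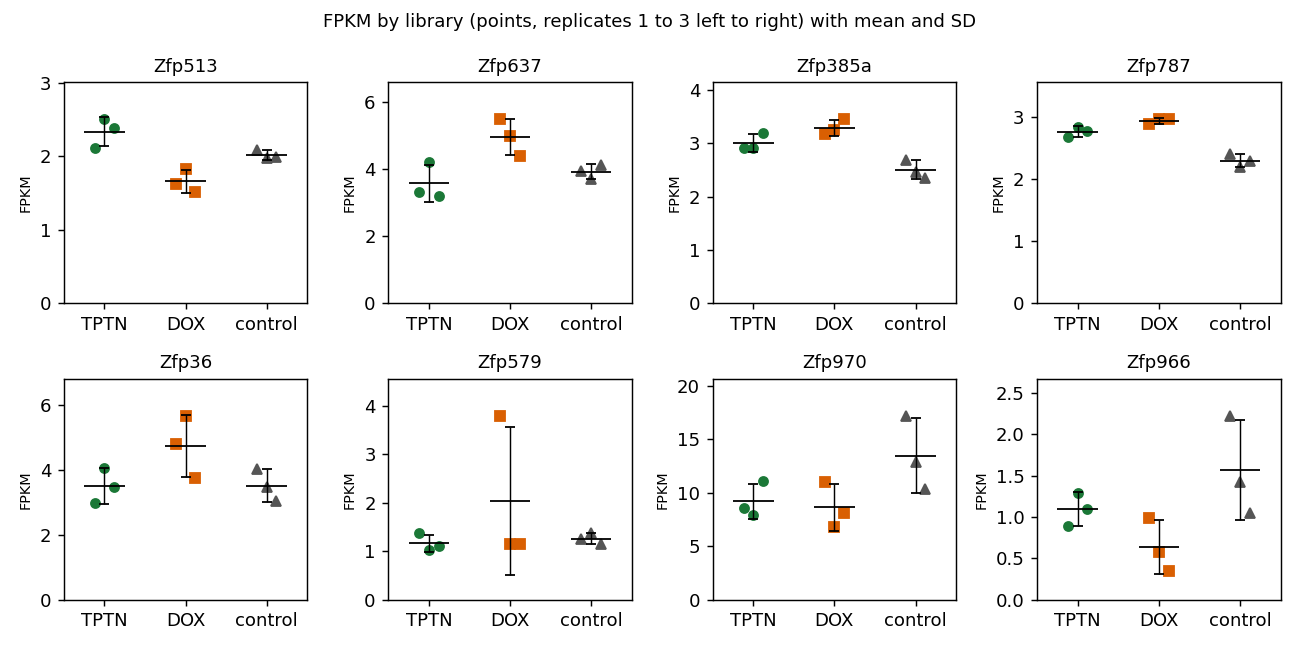
FPKM of 8 Zfp genes in each library, with a panel per gene and an axis from 0. Points are libraries, horizontal lines group means and bars SD (n = 3). The DOX libraries of Zfp513 lie below both other groups, the 3.79 FPKM of Zfp579 belong to DOX replicate 1 alone, and Zfp970 and Zfp966 are highest in control replicate 1.

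TPTN hearts were also compared with control hearts. No Zfp gene passed the threshold in limma, against 0.720% of tested genes. At an unadjusted p under 0.05, 14 members were higher and 2 lower in TPTN, or 8.28 and 1.18% of members against 9.02 and 4.12% of tested genes. The members' counts were 7 higher and 3 lower with median ratios (6.43 and 6.94% of tested genes), 5 and 4 with quantile normalization (6.79 and 6.54%), 7 and 3 with the rescaled FPKM (6.86 and 5.66%), and 3 and 4 without control replicate 3 (7.11 and 3.70%). With each library left out in turn, 3 to 18 members were higher and 0 to 4 lower. TPTN libraries lay above all control libraries in 32 members and below them in 5, or 18.9 and 2.96% of members against 15.2 and 6.03% of tested genes. The median log2 change was 0.034 over the members and 0.037 over all tested genes, with a positive value in 64.5% of members and 62.4% of tested genes. The members' median turned to -0.000385 with scaling by median ratios and to -0.0078 with quantile normalization. No member had an absolute change of at least 0.5 on log2(FPKM + 1), against 2.07% of tested genes. The members' changes ran from -0.49 (Zfp970, with means of 9.178 FPKM in TPTN and 13.446 FPKM in control libraries) to 0.324. Zfp787 had the smallest p, with the values given above and a log2 change of 0.19 (SE 0.06, limma adjusted p = 0.221). Zfp768 had 9.27, 11.1 and 10.8 FPKM in TPTN libraries against 9.04, 8.33 and 7.60 FPKM in control libraries, with a log2 change of 0.29 (SE 0.10, limma adjusted p = 0.227). Zfp35, Zfp385a and Zfp955a gave 0.24, 0.19 and 0.25 log2 units. Zfp14, Zfp445, Zfp830 and Zfp790 gave -0.20, -0.24, -0.13 and -0.15 log2 units, with limma adjusted p from 0.369 to 0.536.

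The 3 protein classes had similar medians. In DOX against control the median log2 change was 0.016 in KRAB members, 0.027 in the members with fingers alone and 0.016 in those with few fingers. In TPTN against DOX it was 0.017, 0.025 and 0.041 in the same order, and in TPTN against control 0.025, 0.036 and 0.065. At an unadjusted p under 0.05 in DOX against control, 1 of 74 KRAB members (1.35%) was higher. So were 8 of 76 members with fingers alone (10.5%) and 3 of 19 with few fingers (15.8%), against 14.6% of tested genes. The shares that were lower were 4.05, 3.95 and 5.26% in the same order, against 3.47% of tested genes. The difference between classes was not tested, and the shares were not recounted with other scalings or without DOX replicate 1.

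Zfp genes were also grouped by known role, and 2 of these lists hold genes below the members' minimum level. Of 10 Zfp genes listed as activators or general transcription factors, all tested, none passed the threshold in limma. Zfp24, the most abundant at a mean of 3.998 FPKM and known for a role in myelination, had 4.18, 4.65 and 4.58 FPKM in TPTN libraries, 4.58, 3.25 and 3.66 FPKM in DOX libraries and 3.76, 3.55 and 3.79 FPKM in control libraries. Of 7 tested KRAB genes listed for silencing of transposable elements or imprinted genes, none passed. Zfp445 had 6.58, 7.23 and 7.58 FPKM in TPTN libraries, 8.28, 6.11 and 6.41 FPKM in DOX libraries and 10.1, 8.43 and 7.44 FPKM in control libraries, and its log2 change in DOX against control was -0.28 (SE 0.12, limma adjusted p = 0.250). Its DOX and control libraries overlapped.

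Of 9 tested Zfp genes listed as partners of chromatin complexes, 7 of them members, none passed the threshold in limma. Zfp91, the most abundant of them, had 10.7, 11.1 and 10.4 FPKM in TPTN libraries, 10.51, 9.58 and 8.55 FPKM in DOX libraries and 10.8, 11.2 and 10.6 FPKM in control libraries. The 8 tested genes listed for a role in mesenchyme or heart, 7 of them members, held no gene past the threshold either. Among them was Zfp260, a partner of Gata4 in the cardiomyocyte response to alpha-adrenergic stimulation in the rat. Zfp260 averaged 4.10 FPKM, with 3.88, 4.23 and 3.997 FPKM in TPTN libraries, 5.05, 4.35 and 3.74 FPKM in DOX libraries and 4.39, 3.78 and 3.52 FPKM in control libraries. Of these 8 genes, 6 had their highest value in DOX replicate 1, the library with the highest atrial and fibroblast marker sums, and the part of those cells was not tested. The 8 tested RNA-binding members, Zfp106, Zfp36, Zfp385a and Zfp830 among them, had none highest in that library, and none passed the threshold in limma. Over all members the count was 49 of 169, or 29.0%, against 22.8% of tested genes. In the other lists it was 4 of 10 activators, 3 of 9 partners of chromatin complexes, 1 of 7 silencing genes, 9 of 27 corepressor genes and 10 of 22 Zfp36 relatives and decay genes.

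Genes of the corepressor machinery that KRAB proteins depend on were present, Trim28 at a mean of 8.31 FPKM. Trim28 had 8.48, 8.45 and 9.31 FPKM in TPTN libraries, 9.60, 8.07 and 8.18 FPKM in DOX libraries and 7.71, 7.495 and 7.485 FPKM in control libraries. Both the TPTN and the DOX libraries lay above every control library, with log2 changes of 0.19 (SE 0.08, limma adjusted p = 0.330) in TPTN and 0.16 (SE 0.08, limma adjusted p = 0.291) in DOX. Setdb1 averaged 2.61 ± 0.0508 FPKM in TPTN, 2.26 ± 0.226 FPKM in DOX and 2.31 ± 0.0920 FPKM in control libraries (SD, n = 3 each). None of the 27 tested corepressor genes passed the threshold in limma. Before adjustment, at p under 0.05, 7 were higher and none lower in TPTN against control, 3 higher and none lower in TPTN against DOX, and 1 higher and none lower in DOX against control. The higher ones are 25.9, 11.1 and 3.70% of the list, against 9.02, 7.78 and 14.6% of tested genes in the same order. Like those of the other gene lists, these counts come from FPKM as deposited and all 9 libraries, and other scalings were not counted. Their median log2 change was 0.093 in TPTN against control, 0.079 in TPTN against DOX and 0.037 in DOX against control, against 0.037, -0.0079 and 0.044 over all tested genes.

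The authors' deposited table marks 25 of the 169 members yes, which is 14.8% of members. The share is 9.89% over all genes in that table, most of which lie below the members' minimum level, 21.4% over the 12500 tested genes and 23.8% over the 9359 protein-coding genes of a mean of 1 FPKM or more. Each gene with a deposited p-value under 0.05 is marked yes, and only 2 of the 25 marked members have a deposited q-value under 0.05. The groups behind that mark are not stated there. In the authors' deposited table, Zfp966 has the lowest q-value of the members at 0.0177 and Zfp970 follows at 0.0406, while Zfp787 and Zfp637 stand at 0.0601 and Zfp36 at 0.0795. The authors' deposited table gives Zfp513 a q-value of 0.206.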

How the data were processed

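Messenger RNA from hearts was sequenced as paired reads, per the labels' protocols, with dUTP used to mark strand. The deposited file holds FPKM, with a p-value and q-value column by the authors. Per the submitters' processing notes, cutadapt 1.9, HISAT2 2.0.4, StringTie 1.3.4d and GRCm38 were used, with no step stated. Read counts were not used here, so depth was only estimated, and intervals of counting error were not given. FPKM depends on the library total, and the share of it held by mitochondrial genes differed by group. That share was 48.1 to 48.7% in TPTN, 44.7 to 46.2% in DOX and 49.8 to 50.9% in control libraries, with no overlap between groups.

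The test used log2(FPKM + 1) of the 12500 genes with a mean of 0.5 FPKM or more and limma 3.58.1 (R 4.3.3, data.table version 1.17.8; trend, robust, a single model of 9 libraries, 6 residual degrees of freedom, two-sided). This scale understates the change of low genes. The limma test was checked on simulated independent noise around the real means, with added changes larger than those of nearly all members. That check does not cover changes of the size seen in most members. The members and lists were chosen with earlier results of these data known, so lists are described by counts and medians. Named genes are, per comparison, those past the threshold and, where fewer than 5 pass in a direction, those with the smallest p up to 5; the 8 most abundant; and the leading gene of each role list. Proteins translated from GENCODE M21 (29154 of 29237 genes found) were searched for KRAB and SCAN domains with HMMER 3.4 and MAFFT 7.526 (E-value 0.0001) and for fingers by pattern. Tables and plots used Python 3.11.15, pandas 2.3.3, numpy 2.4.6, Biopython 1.88 and matplotlib 3.10.9. Alternatives were other fits, pseudocounts, filters, scalings and leaving out each library.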

Additional observations from a re-analysis of the deposited data

How the results depend on the processing

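In DOX against control, the count of Zfp genes past the threshold, 0, became 1 with a minimum mean of 1 FPKM (Zfp385a, higher) and 1 with the sum scaled without mitochondrial genes and copies (Zfp830, lower), and stayed 0 under the other settings, each library left out included. In TPTN against DOX, the count of 1 became 0 with a minimum absolute log2 change of 0.5, with only the 2 groups compared, with no filter, and when control replicate 3 and TPTN replicate 1 were both left out, and was 0 to 0 over the 9 fits that left out a library. It became 2 with median ratios and 2 with quantile normalization, where Zfp637 joined Zfp513, and 3 with the sum without mitochondrial genes and copies (Zfp513, Zfp335 and Zfp322a). In TPTN against control it was 0 under every setting run. Scaling moved the medians. Without mitochondrial genes and copies, the members' median log2 change was -0.084 in DOX against control, 0.107 in TPTN against DOX and 0.012 in TPTN against control, while the median of all tested genes was -0.071, 0.085 and 0.015 in the same order. In TPTN against control the members' median was -0.000385 with median ratios and -0.0078 with quantile normalization. The sign of the members' median in DOX against control therefore depends on the scaling, and so does that in TPTN against control.

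With the replicate number as a block, 0 Zfp genes passed in each of the 3 comparisons, and the limma adjusted p of Zfp513 was 0.0877. Deviations of same-numbered libraries correlated from -0.26 to 0.02, so these libraries did not rise and fall together. Whether libraries share a batch in another order was not tested. At 1 to 3 FPKM, depth and 3 libraries per group limit what could be detected. For a gene that missed the threshold, no change and an undetected change cannot be told apart here.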

Other observations

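Among zinc finger genes outside the set, Zbtb16, a BTB-domain factor also called PLZF and known as a glucocorticoid-responsive gene, had 4.83, 2.09 and 2.33 FPKM in TPTN libraries, 5.71, 5.18 and 1.98 FPKM in DOX libraries and 11.7, 10.4 and 12.4 FPKM in control libraries. Every TPTN and DOX library lay below every control library. The log2 change was -1.67 (SE 0.36, limma adjusted p = 0.113) in TPTN against control and -1.32 (SE 0.36, limma adjusted p = 0.112) in DOX against control. None of the 36 tested Zbtb genes and none of the 17 tested Zscan and Zkscan genes passed the threshold in any of the 3 comparisons with limma. At an unadjusted p under 0.05 in DOX against control, 3 Zbtb genes were higher and 2 lower, or 8.33 and 5.56%, against 14.6 and 3.47% of tested genes. In TPTN against DOX, 5 were higher and 1 lower, or 13.9 and 2.78%, against 7.78 and 12.9% of tested genes. The counts were again 5 and 1 in TPTN against control, against 9.02 and 4.12% of tested genes. Of the Zscan and Zkscan genes, 1 was at that p, lower in TPTN against DOX. Zbtb16 was named after its values were seen.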
